A study of Homo sapiens with 2 samples.

Results

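Of the 2697 WSTF ChIP-seq summits in SW620 cells, 397 lay within 1 kb of the ends of 2 or more different protein-coding genes (14.7%, 95% interval 13.4 to 16.1). They were chosen by position only: the distance from the summit, a single base, to the outer start or end of each protein-coding gene in the RefSeq gene table of GRCh38.p14. Another 1576 summits had the end of 1 protein-coding gene within 1 kb, 199 had ends of non-coding genes only, and 525 had no gene end. SW620 is an established human colorectal cancer line grown from a lymph node metastasis, and WSTF, encoded by BAZ1B, is a bromodomain protein that partners the chromatin-remodelling ATPase SMARCA5. The series holds 2 samples, titled SW620 and SW620-IP, both from this line and with no other treatment in their labels. Neither title names an input, and the summit list is not tied to 1 of the 2 samples. WSTF is described as knocked down in the series title but as overexpressed in the design text, so its level in these cells is not known here, and no control line or second condition was compared. All values come from 1 list with no replicate lists, so the intervals below are exact Clopper-Pearson intervals that cover counting error only, and no test between conditions was possible. The list holds no reads, so the sequencing depth is unknown.

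Neighbouring genes can meet in several ways. Where 2 genes on opposite strands begin close together, head-to-head, the stretch between their starts serves as a bidirectional promoter; such stretches are usually CpG-rich and poor in TATA boxes, and they are common at housekeeping genes such as those of DNA repair, RNA processing and mitochondria. Genes on the same strand meet head-to-tail, with the end of one before the start of the next, and genes that converge meet tail-to-tail.

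The sequences between the starts are shown for the 8 highest-scoring summits at head-to-head genes that do not overlap, have at least 30 bases between their outer starts, and have that whole interval inside the 250 bases that the RefSeq promoter table (GRCh38.p14) gives before 1 of those starts. Pairs whose windows in the table begin at other starts were passed over. They are printed because each is a complete stretch between divergent genes. All are on the plus strand, 5′ to 3′, with both transcribed starts left out. Capitals mark, on either strand, the letters of 8 motifs: the GC box, the CCAAT box, the ETS motif, the E-box, the NRF1 motif, the TATA box, the ZBTB33 motif and the YY1 motif, each spelled out beside its share of promoters below.
DERPC/UTP4 (chr16:69132589-69132648): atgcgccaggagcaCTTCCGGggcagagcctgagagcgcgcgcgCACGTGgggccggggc
ARL16/HGS (chr17:81683798-81684010): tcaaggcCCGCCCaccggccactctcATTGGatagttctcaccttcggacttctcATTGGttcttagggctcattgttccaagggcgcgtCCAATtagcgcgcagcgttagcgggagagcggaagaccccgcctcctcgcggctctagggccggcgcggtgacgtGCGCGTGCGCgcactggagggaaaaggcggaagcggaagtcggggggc
C11orf71/RBM7 (chr11:114400512-114400665): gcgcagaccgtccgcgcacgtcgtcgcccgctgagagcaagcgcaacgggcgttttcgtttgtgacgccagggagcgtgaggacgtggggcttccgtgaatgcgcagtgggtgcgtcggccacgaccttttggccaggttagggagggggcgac
COMMD6/UCHL3 (chr13:75549440-75549501): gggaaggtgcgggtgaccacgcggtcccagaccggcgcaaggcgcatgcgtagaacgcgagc
ITGB1BP1/CPSF3 (chr2:9423570-9423653): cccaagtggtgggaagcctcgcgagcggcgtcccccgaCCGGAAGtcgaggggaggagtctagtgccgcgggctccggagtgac
DDX28/DUS2 (chr16:68023233-68023283): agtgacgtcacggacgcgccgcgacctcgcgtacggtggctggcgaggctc
POMT2/GSTZ1 (chr14:77320884-77321035): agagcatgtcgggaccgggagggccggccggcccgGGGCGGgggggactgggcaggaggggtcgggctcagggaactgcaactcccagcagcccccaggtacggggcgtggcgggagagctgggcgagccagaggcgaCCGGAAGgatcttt
CIMIP2A/NELFB (chr9:137255123-137255326): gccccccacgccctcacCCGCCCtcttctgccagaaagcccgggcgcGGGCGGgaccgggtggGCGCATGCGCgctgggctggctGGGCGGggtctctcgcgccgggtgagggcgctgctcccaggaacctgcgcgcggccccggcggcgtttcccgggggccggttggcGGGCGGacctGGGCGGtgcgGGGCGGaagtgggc

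These 8 stretches ran from 51 to 213 bases and from 64.8% to 80.4% G and C, and 5 of them held at least 1 of the motifs. At ARL16/HGS, which encode a small GTPase and an ESCRT-0 subunit, the summit sat on base 207 of 213, counted from the left, beside the start of HGS, and the stretch held 3 CCAAT boxes. At CIMIP2A/NELFB the summit sat on base 116 of 204, in a stretch with 6 GC boxes and 1 NRF1 motif; NELFB is a subunit of the negative elongation factor that pauses RNA polymerase. At C11orf71/RBM7 it sat on base 6 of 154, at the start of C11orf71, in a stretch with none of the motifs. In the other 5 the summit lay outside the stretch, inside 1 of the genes, from 9 bases away at DERPC/UTP4 to 269 bases away at ITGB1BP1/CPSF3. A motif match is a description of these letters and not a bound site.

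The arrangement of the genes could be read for 311 of the 397 summits, from strands in the promoter table; the other 86 had a gene whose strand was not used here. All 14 shared summits on chromosome 8 are among the 86, so no share by arrangement or of lone starts below includes that chromosome. Head-to-head genes made up 226 of the 311 (72.7%, 67.3 to 77.5). For comparison, the gene table holds 2765 pairs of protein-coding genes of known arrangement with ends within 1 kb of each other. Of those pairs, with or without a summit, 1096 were head-to-head. Among the 226 summits, 164 were at pairs that stood apart and 62 at pairs whose bodies overlapped at their starts. A further 63 summits (20.3%, 15.9 to 25.2) lay where 1 gene ended and the next began on the same strand, 18 (5.79%) lay where genes shared a start on 1 strand, and 3 lay where a gene began at the end of a gene on the other strand. A single summit, at LTC4S/MGAT4B, lay where converging genes end, inside LTC4S. In all, 310 of the 311 had the start of at least 1 of the genes within 1 kb. The rule treated starts and ends alike, so these counts describe where the summits fell. Each gene was placed by its end nearest to the summit. A short gene could thus be counted by its end although its start was also within 1 kb. This holds for HOOK2/JUNB among the 3, and for TOR1AIP1/LOC139427322 and LOC124909484/SEMA3F among the 63.

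Summits were found at close gene ends mainly where a gene began. In the gene table, 3844 pairs of protein-coding genes have ends within 1 kb of each other, and 412 of them (10.7%, 9.76 to 11.7) held a summit within 1 kb of both ends; for comparison, 2321 of 19974 protein-coding genes (11.6%) had a summit within 1 kb of either end. Head-to-head pairs held one in 229 of 1096 cases (20.9%, 18.5 to 23.4). The share was 20.4% (166 of 814) for pairs that stand apart and 22.3% (63 of 282) for overlapping pairs. Pairs with a shared start held a summit in 28 of 134 cases (20.9%, 14.4 to 28.8), and head-to-tail pairs in 59 of 463 (12.7%, 9.84 to 16.1). Tail-to-tail pairs held one in 4 of 638 cases (0.627%, 0.171 to 1.60), and pairs that share an end in 0 of 382 (interval to 0.961%). The intervals of the arrangements with 2 starts did not overlap those of arrangements without a start. Neighbouring pairs share genes and open chromatin, which was not measured in these data, so the intervals are too narrow for statements about independent loci.

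**Figure D1:**
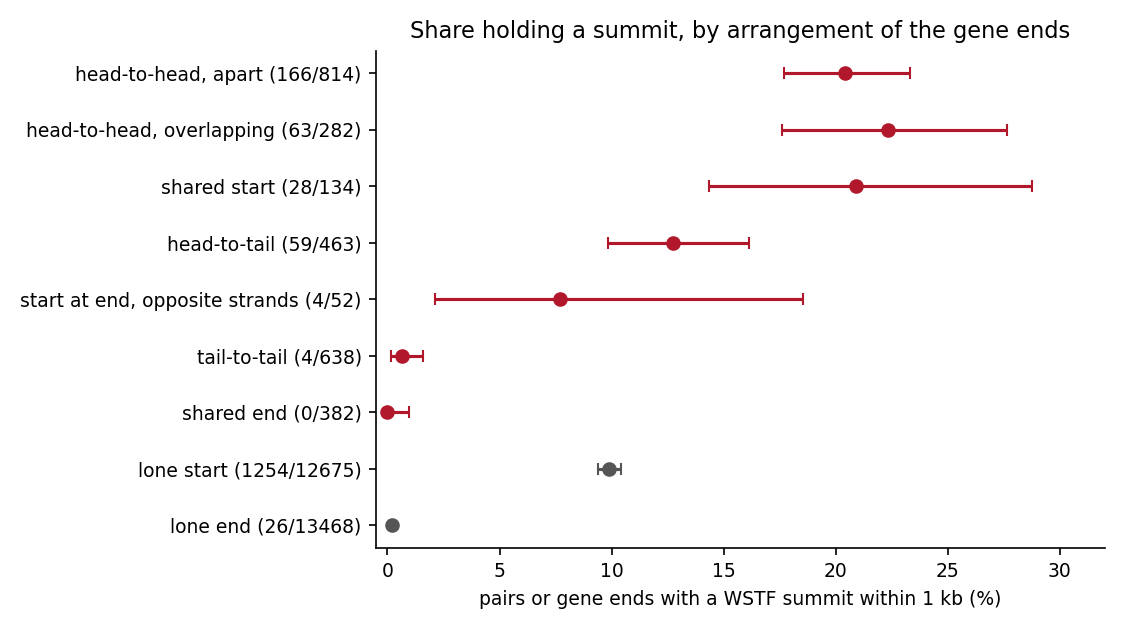
Percentage of pairs of protein-coding gene ends within 1 kb of each other that hold a summit within 1 kb of both ends, by arrangement (red), and of lone gene starts and ends (grey); points are shares, bars are exact 95% intervals, and the counts stand beside each name. Arrangements with 2 starts sit near 20%, head-to-tail pairs at 12.7%, and tail-to-tail pairs, shared ends and lone ends below 1%.

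Starts that have no other protein-coding gene end within 1 kb give the level without a partner. Of 12675 such lone starts, 1254 (9.89%, 9.38 to 10.4) had a summit within 1 kb, and of 13468 lone ends, 26 (0.193%, 0.126 to 0.283) had one. A head-to-head pair holds 2 starts, and 2 unrelated lone starts at that share would give at least 1 summit in 18.8% of cases. The observed share of head-to-head pairs with a summit within 1 kb of either start was 242 of 1096 (22.1%, 19.7 to 24.7). Counted per start, 464 of 2160 starts of head-to-head genes (21.5%) had a summit, but the 2 starts of a pair were mostly reached by the same summit. The 18.8% lay just below this interval, and the pairs were matched to the lone starts on neither expression nor base composition. Shares by distance between the starts, for pairs apart, were 19.2% (40 of 208) up to 100 bp, 17.9% (46 of 257, 13.4 to 23.1) above that up to 200 bp, 17.2% (29 of 169, 11.8 to 23.7) up to 300 bp, 32.8% (39 of 119, 24.5 to 42.0) up to 500 bp and 19.7% (12 of 61) up to 1000 bp. The interval of the class up to 500 bp lay above those of the classes up to 200 and 300 bp and overlapped the other 2. Among overlapping pairs, the same range of distances gave 24.7% (20 of 81, 15.8 to 35.5).

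At head-to-head pairs the summit sat close to 1 of the starts. The nearer start was a median of 99.5 bp away (quartiles 36.3 and 193) and the farther start 322 bp (202 and 494), over 226 summits. In 191 of 226 (84.5%) the nearer start was within 250 bp, and in 82 (36.3%) both were. Among the 1286 summits at the start of 1 gene, the median distance was 170 bp, and 871 (67.7%) lay within 250 bp. A summit with 2 starts to choose from will lie nearer to one of them for that reason alone, so the shorter distance is a description. In pairs that stand apart, whose starts were a median of 192 bp from each other (quartiles 106 and 342, range 24 to 855), 57 of 164 summits (34.8%, 27.5 to 42.6) lay between the starts and 108 (65.9%) inside 1 gene, where a summit on a start counts for both. In overlapping pairs, with a median overlap of 474 bp, 27 of 62 (43.5%, 31.0 to 56.7) lay in the shared stretch, inside both genes. The midpoint of the starts was a median of 149 bp from the summit in pairs apart and 255 bp in overlapping pairs, and summits lay on both sides of it (90 of 164 at lower coordinates in pairs apart, 26 of 62 in overlapping pairs).

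**Figure D2:**
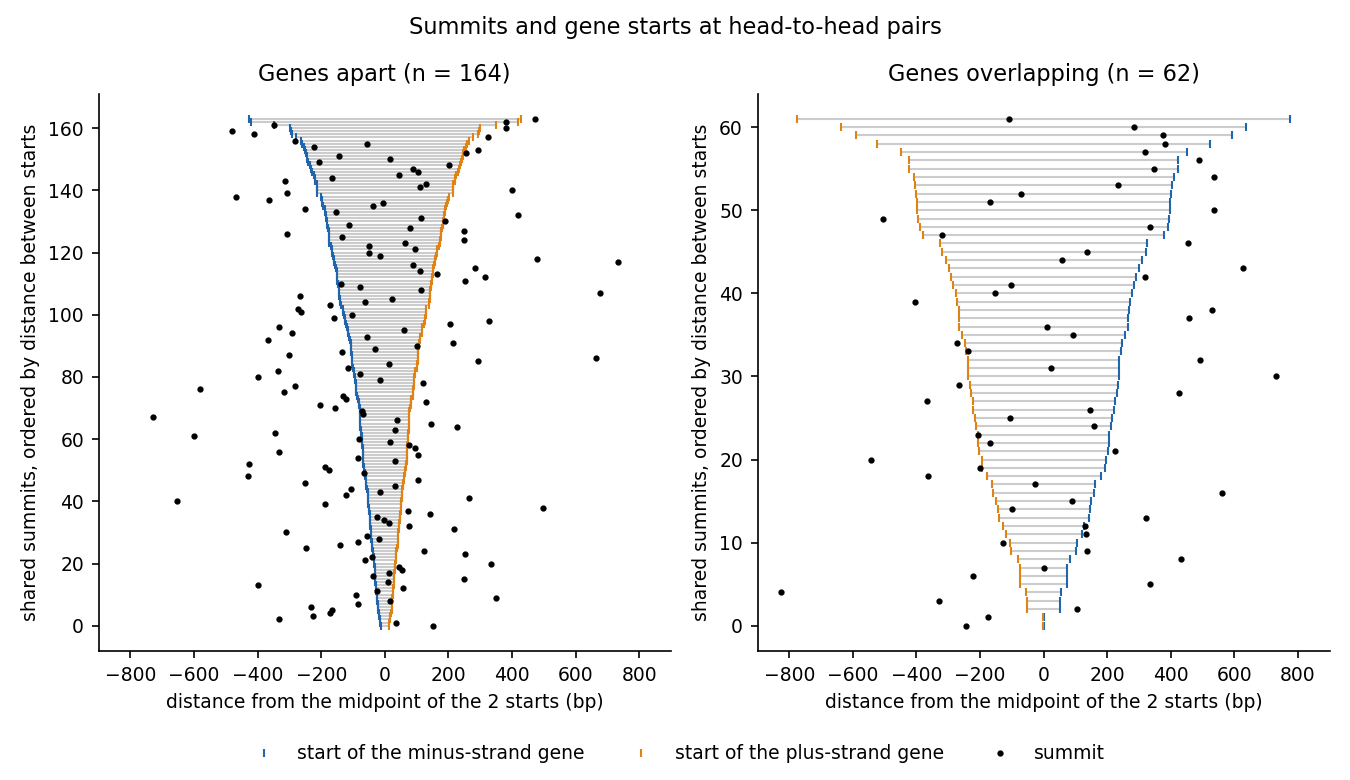
Position of each summit (black) and of the minus-strand (blue) and plus-strand (orange) gene starts, in bp from the midpoint of the 2 starts, for head-to-head pairs that stand apart (left, 164) or overlap (right, 62), each row 1 summit, ordered by the distance between starts. Summits scatter on both sides of the midpoint; 57 of 164 and 27 of 62 fall between the starts.

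At head-to-tail genes the summit was mostly at the start. It lay nearer to the start than to the end in 56 of 63 cases (88.9%, 78.4 to 95.4), with a median of 145 bp to the start and 607 bp to the end. Within 250 bp there was a start in 44 of 63 (69.8%) and an end in 11 (17.5%). The gap between the 2 ends was not held equal, and a gene end far from the start cannot also be near the summit. The 7 summits nearer to the end included INPP5E/SEC16A (score 6.01, 145 bp from the start and 115 bp from the end), TAF6L/TMEM179B (5.15) and MCRIP1/PPP1R27 (4.98). MCRIP1/PPP1R27 held a second summit, scored 2.99, 404 bp away, and is 1 of 3 close pairs with 2 summits; the others were CENPX/LRRC45 (3.58 and 2.51, 707 bp apart) and C21orf58/PCNT (2.83 and 2.36, 944 bp apart), both head-to-head. CENPX is a centromere and DNA repair protein and PCNT the centrosome scaffold pericentrin. The stretch between the MCRIP1 start and the PPP1R27 end is printed because its pair alone of the head-to-tail genes held 2 summits: it runs over 200 bases (plus strand, capitals as above), with the stronger summit on base 139 from the left.
MCRIP1/PPP1R27 (chr17:81833292-81833491): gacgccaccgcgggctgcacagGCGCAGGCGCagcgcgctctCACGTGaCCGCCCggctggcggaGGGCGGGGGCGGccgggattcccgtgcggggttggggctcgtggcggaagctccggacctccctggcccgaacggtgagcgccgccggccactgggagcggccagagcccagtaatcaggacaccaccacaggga

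**Figure D3:**
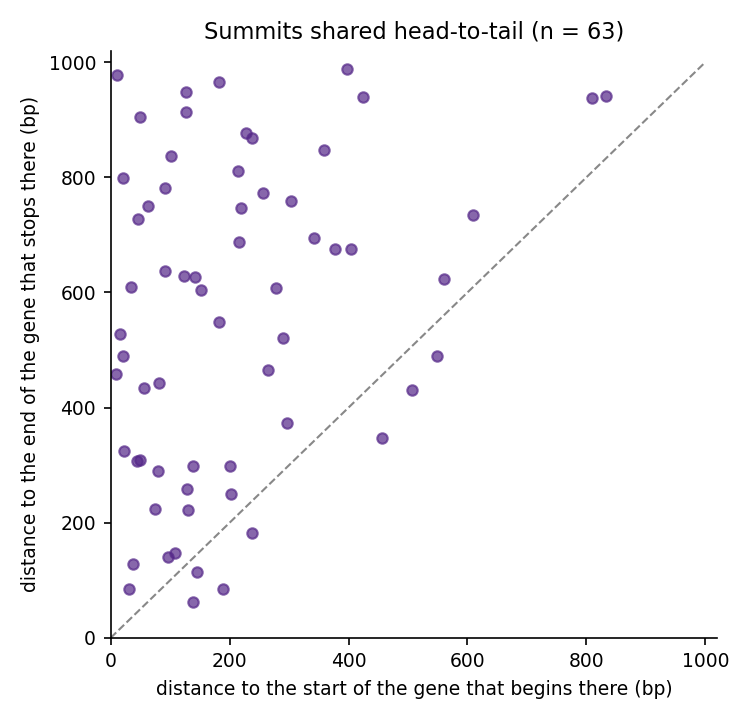
Distance in bp from each of the 63 summits at head-to-tail genes to the start of the gene that begins there (x axis) and to the end of the gene that stops there (y axis); points above the dashed line of equal distance are nearer to the start. Of the points, 56 lie above the line and 7 below it.

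Of the 4 tail-to-tail pairs with a summit, 3 also had a gene start listed within 1 kb of the summit. They were PIDD1/PANO1 (score 3.74, 216 bp from the start of SLC25A22, a mitochondrial glutamate carrier gene), PLCB3/BAD (7.66, 404 bp from the start of GPR137) and C19orf73/LIN7B (2.36, 266 bp from the start of C19orf73 itself, a short gene). BAD encodes a pro-apoptotic BCL2-family protein and PLCB3 a phospholipase C. The fourth, at LTC4S/MGAT4B (chromosome 5 position 179796598, score 2.36), lay 49 bp from the end of LTC4S, the leukotriene C4 synthase gene, and 999 bp from the end of MGAT4B, with no start listed within 1 kb.

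The strongest of the 397 summits spanned all the common arrangements. The score is the authors' −log10 q at the summit and was used only within the list. The highest, 16.9, lay at chromosome 13 position 113490886, 135 bp outside SLC9D1 and inside DCUN1D2, a neddylation co-factor gene; the pair is head-to-head and overlaps by 542 bp. Next was a start shared on 1 strand, on chromosome 7 at position 139340165 (14.9), 307 bp from both LUC7L2, which encodes a U1 snRNP-associated splicing factor, and FMC1, a mitochondrial ATP synthase assembly factor. PSPH/CCT6A followed (chromosome 7 position 56051687, 12.1), the genes of the last enzyme of serine synthesis and of a chaperonin subunit, with the summit between their ends, 243 and 78 bp away. The summit at ACAP1/KCTD11 scored 10.7 (383 and 302 bp), and strand was not used for a gene of either pair. SNX15/SAC3D1, head-to-tail on chromosome 11, scored 10.5, with the summit 82 bp inside SAC3D1 and 443 bp beyond SNX15, a sorting nexin gene. CENPT/NUTF2, an overlapping head-to-head pair of a kinetochore protein and the nuclear import factor for Ran, scored 10.4 (chromosome 16 position 67846993, 700 and 60 bp). These 6 were the only shared summits at or above a score of 10 (1.51%, 0.557 to 3.26), beside 1.56% of all summits.

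ALYREF/ANAPC11 (9.84, chromosome 17 position 81891724) joins an mRNA export factor to the RING subunit of the anaphase-promoting complex; the summit lay 137 bp outside ALYREF and 934 bp inside ANAPC11. DDRGK1/ITPA scored 9.67, and NME3/MRPS34, a nucleoside diphosphate kinase and a mitochondrial ribosomal protein in head-to-tail order, scored 9.64. UTP4, a ribosome assembly factor, shares its promoter stretch with DERPC and CHTF8, a subunit of an alternative clamp loader, and the summit there scored 9.61. PCNA/CDS2 scored 9.61 too (chromosome 20 position 5126777): the genes of the replication clamp and of CDP-diacylglycerol synthase begin 386 bp apart, and the summit sat between them, 155 and 231 bp away. EMC1/MRTO4 scored 8.72 and POLE3/C9orf43 scored 8.65. POLE3, which overlaps its neighbour by 2 bp, encodes a histone-fold protein of DNA polymerase epsilon and of the CHRAC remodelling complex, whose ATPase is SMARCA5.

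The summit at VRK3/ZNF473 scored 8.52 and that at MORC2/TUG1 8.38, the latter between a gene of the HUSH silencing pathway and TUG1, long known as a non-coding transcript and protein-coding in this table. ARL16/HGS scored 8.24, CKLF and its read-through transcript CKLF-CMTM1 scored 7.94, and ZNF821/IST1 scored 7.71, with IST1 another ESCRT-related gene. PACS2/TEX22, SEZ6L2/ASPHD1 and PIP4K2B/CWC25 were tied at 7.71, and PLCB3/GPR137 came next. The last of the 25 highest were KCTD9/CDCA2 (7.59, on chromosome 8), MED31/C17orf100 (7.48), where MED31 is a Mediator subunit, and C11orf71/RBM7 (7.36), where RBM7 takes part in nuclear RNA decay. DAB1/OMA1, which share a start on 1 strand, scored 6.84. At the opposite-strand arrangement the highest scores were tied, at HOOK2/JUNB and SCAND1/CNBD2 (both 4.44), followed by WDR33/SFT2D3 (3.40). At HOOK2/JUNB the starts of both genes also lay within 1 kb of the summit, so the pair is head-to-head as well. It was placed here because the end of JUNB (895 bp away) was nearer to the summit than its start.

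Scores of shared summits lay below those at 1 protein-coding gene and above those with no gene end by their medians, with overlapping intervals. Their median score was 3.62 (interval 3.43 to 3.80, quartiles 2.52 and 5.01, range 1.34 to 16.9), against 3.75 (3.72 to 3.83) for summits at 1 protein-coding gene, 3.58 (3.32 to 3.72) for those with no gene end, and 3.72 over all. Of the 397, 194 (48.9%) reached the list's median score, as did 843 of 1576 (53.5%) with 1 gene. By arrangement the medians were 3.61 for head-to-head pairs apart, 3.19 for overlapping pairs, 4.04 for head-to-tail genes and 3.48 for shared starts, and their intervals overlapped (3.40 to 3.95, 2.89 to 3.92, 3.34 to 4.65 and 3.02 to 5.57). None of these differences was tested, since summits of 1 list are not replicates.

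**Figure D4:**
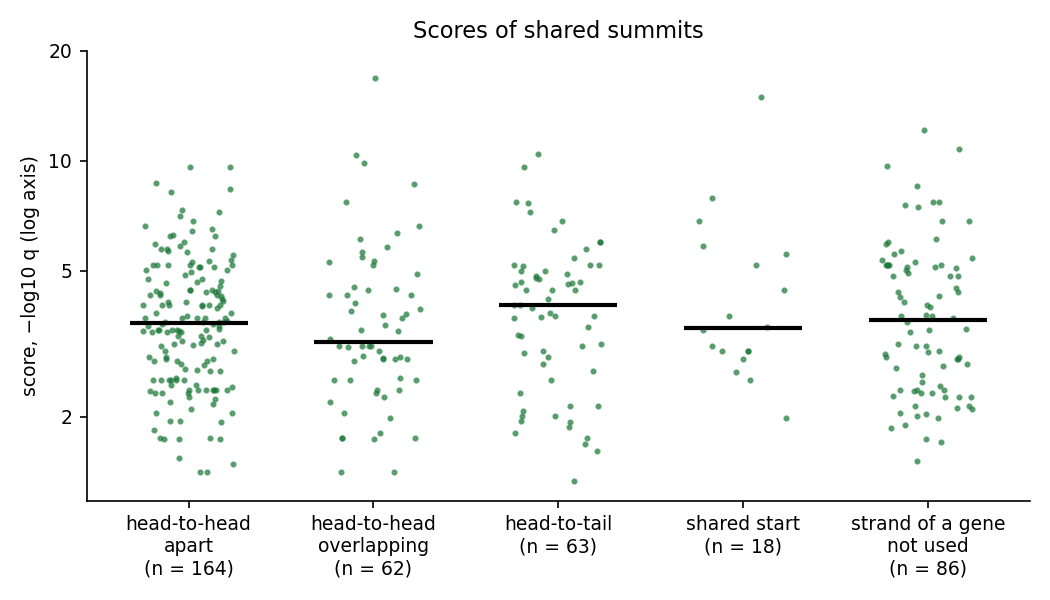
Score (−log10 q, log axis) of each shared summit by arrangement of its genes, with the median as a black line and points spread sideways for sight; the last column holds summits with a gene whose strand was not used. The columns overlap over nearly their whole range, with medians from 3.19 to 4.04.

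More than 2 genes met at 15 summits. At 14 of them 3 genes lay within 1 kb and at 1 there were 4, MMP24, MMP24OS, EIF6 and MMP24-AS1-EDEM2 (score 2.00). The high-scoring ones included DERPC/CHTF8/UTP4 (9.61), PLCB3/BAD/GPR137 (7.66), NAA80/HYAL3/HYAL1 (4.75) and SLC25A44 with PMF1 and PMF1-BGLAP (4.04). At AK6/TAF9/RAD17 (3.89) the first 2 share a start, facing the checkpoint clamp loader gene RAD17. Genes whose symbol joins the symbols of 2 other genes in the table, as read-through genes are named, were at 13 of the 397 summits (3.27%), and placeholder LOC genes at 26 (6.55%).

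The 1 kb limit cut through a continuous range of distances. Just inside it were LTC4S/MGAT4B, with the second gene end at 999 bp, and MTSS2/VAC14 at 989 bp (score 1.69). Just outside were EEF1G/TUT1 at 1006 bp (2.91) and CDK19/AMD1 at 1014 bp (6.04).

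Positions within 1 kb of the ends of 2 or more protein-coding genes cover 0.198% of the chromosomes up to their last gene, and positions within 1 kb of any such end cover 2.39%. The first are 8.29% of the second. Of the 1973 summits near a protein-coding gene end, 397 (20.1%) fell in that part. The positions count starts and ends alike, whereas summits lay mostly at starts. The parts were not matched on their share of starts. Non-coding gene ends were also within 1 kb of 44 shared summits (11.1%, 8.17 to 14.6), and of 454 of the 1576 at 1 protein-coding gene (28.8%, 26.6 to 31.1).

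Promoter windows of head-to-head pairs with a summit were richer in G and C than those of pairs without, by their medians. Lone starts without a summit were not counted as a group. Windows of 300 bases (250 before and 50 after the outermost start) were read for 399 of the 451 genes in head-to-head pairs with a summit, and for 1507 of the 1709 in pairs without. Median G and C content was 68.3% with a summit and 63.7% without; it was 69.0% at lone starts with a summit and 62.7% over all 13792 windows. The ratio of observed to expected CpG was 0.902, 0.856, 0.889 and 0.767 in the same order. GC boxes (GGGCGG), which SP and KLF factors bind, stood in 78.4% (74.1 to 82.4) of windows of pairs with a summit, 69.7% (67.3 to 72.0) without, 78.7% at lone starts with a summit and 58.5% over all. NRF1 motifs, spelled GCGCA, then any base, then GCGC, stood in 20.6% (16.7 to 24.9), 13.1% (11.4 to 14.9), 17.4% and 8.89%. NRF1 regulates nuclear genes for mitochondria.

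ETS motifs (CCGGAAG) were found more often in head-to-head windows, with or without a summit, than over all windows. They stood in 25.8% (21.6 to 30.4) of windows of head-to-head pairs with a summit and 28.1% (25.8 to 30.4) without, against 21.2% (18.9 to 23.7) at lone starts with a summit and 14.6% over all windows. TATA boxes (TATAAA) stood in 2.51%, 4.31%, 4.71% and 10.0% in the same order, CCAAT boxes, named for their letters, in 38.8%, 40.1%, 36.6% and 37.1%, and E-boxes (CACGTG) in 12.3%, 10.2%, 12.5% and 8.95%. The ZBTB33 motif (TCTCG followed directly by CGAGA) stood in 2.01%, 1.26%, 0.960% and 0.711%, and the YY1 motif (AAGATG followed directly by GCGGC) in 3.01%, 2.65%, 2.44% and 1.44%. GC boxes and NRF1 motifs are themselves made of G and C, and the part of base composition in their shares was not tested. Both windows of a pair overlap where the starts are close, so the intervals are too narrow, and matches of different motifs were allowed to overlap.

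Of 15 textbook bidirectional pairs, 3 shared a summit, beside 20.9% of all head-to-head pairs: ATM/NPAT (4.68), MRPS12/SARS2 (4.04) and HSPD1/HSPE1 (2.16). ATM is the double-strand break kinase and NPAT the activator of histone genes; the summit lay 86 bp from the start of ATM and 343 bp from that of NPAT, with 429 bp between the starts. HSPD1 and HSPE1 encode the mitochondrial chaperonin and its co-chaperonin, and their summit lay 600 bp inside HSPD1. The ends of PPAT and PAICS are over 1 kb apart, and no summit was listed there. None was listed at the collagen IV pairs COL4A1/COL4A2, COL4A3/COL4A4 and COL4A5/COL4A6 or at TAP1/PSMB9, HADHA/HADHB, PDCD10/SERPINI1 and HARS1/HARS2, and absence from the list does not show absence of WSTF.

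Over all protein-coding genes, 794 of 19974 (3.98%) lay at a shared summit, and gene families were set beside that share. Close pairs held 5710 of the genes (28.6%), and 782 of those (13.7%) lay at a shared summit, so each family's count in close pairs is given too. A gene was counted whether the summit lay near its start or its end, so some counted summits lie at the start of the neighbour. Genes named below that are known to be reached at their end are marked. Families were taken by the start of the symbol and are partial: genes of the same function with other names, such as PCNA, ATM, EME2 and TCP1, are not in them. The families also count genes that share only the start of the symbol, such as SLC7A6OS among solute carriers and ZNF470-DT among ZNF genes. Chaperone genes (HSP, DNAJ and CCT symbols) had 9 of 83 at a shared summit (10.8%), out of 32 in close pairs: beside CCT6A these were CCT6B (3.43, head-to-head with ZNF830), DNAJC7 (3.40), DNAJA1 (3.24), HSPD1, HSPE1, DNAJB9, HSPA1A and HSPA1L. Mitochondrial ribosomal protein genes had 7 of 77 (9.09%), with 42 in close pairs: MRPS34 (9.64, at its end), MRPL37 (4.15), MRPL51 (4.04), MRPS12 (4.04), MRPL18 (3.14), MRPL2 (3.00) and MRPL21 (2.13). MRPL18 begins beside TCP1, a chaperonin gene outside the symbol list. DNA repair genes by symbol (RAD, XRCC, ERCC, FANC, MSH and BRCA) had 5 of 53 (9.43%, 24 in close pairs): XRCC3 (5.76), FANCB (5.04), RAD17 (3.89), RAD9B (3.62) and XRCC6 (2.19), the last encoding the Ku70 end-binding protein. FANCB/MOSPD2 was on chromosome X.

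RNA polymerase, splicing and RNA helicase genes (POLR, SNRP, SF3, PRPF, DDX and DHX symbols) had 10 of 120 at a shared summit (8.33%, 68 in close pairs). DDX and DHX genes were taken by symbol, whether or not they act in splicing. The highest were DDX28 (6.52), POLR2L (5.27), an RNA polymerase subunit, the RNA helicase gene DDX5 and DDX51 (4.41). Translation genes had 6 of 89 (6.74%, 41 in close pairs). AARS1 (5.75, at its end), CARS2 (5.63), EARS2 (4.44) and SARS2 (4.04) were highest, all tRNA synthetases. Ubiquitin and proteasome genes had 15 of 225 (6.67%, 71 in close pairs), including FBXW5 and UBE2B (both 6.84), FBXO31 (5.67) and FBXO45 (4.98). Membrane trafficking genes had 8 of 165 (4.85%, 53 in close pairs). Among them were SNX15 (10.5, at its end), TMED1 (5.35), RAB4B (4.60) and VPS29 (3.62), which is head-to-head with RAD9B.

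Other families were near or under the share for all genes, counted over all their members. Zinc finger ZNF genes had 19 of 511 (3.72%, 96 in close pairs), among them ZNF473 (8.52), ZNF821 (7.71), ZNF511 (5.85) and ZNF250 (5.27). Over genes in close pairs alone the grouping differs. ZNF genes had 18 of 96 at a shared summit, above the 13.7% of all genes in close pairs. Chaperone genes had 9 of 32, ubiquitin and proteasome genes 15 of 71 and DNA repair genes 5 of 24, further above it. Mitochondrial ribosomal protein genes had 7 of 42, above it by less than ZNF genes. RNA polymerase, splicing and RNA helicase genes had 10 of 68, translation genes 6 of 41 and membrane trafficking genes 8 of 53, all near 13.7%. Genes with MCM, ORC, POLA, POLD, POLE or RFC symbols had 1 of 31 (POLE3, 13 in close pairs), and 10 of the 31 had some summit; PCNA, described above, is outside this list. Solute carriers had 12 of 386 (3.11%, 106 in close pairs), led by SLC9D1 (16.9), SLC38A12 (5.54) and SLC11A1 (4.67, at its end). Cytosolic ribosomal protein genes had 2 of 95, RPLP2 (4.04) and RPL41 (3.34, at its end), although 36 stood in close pairs. Respiratory chain genes had 2 of 107, ATP5F1E (4.58) and NDUFA7 (4.44, at its end), although 51 stood in close pairs. No family was tested, and families were chosen with earlier results of these data known.

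Chromosomes differed in how many head-to-head pairs held a summit. Chromosome 11 had 29 of 73 (39.7%, 28.5 to 51.9) and chromosome 17 had 30 of 76 (39.5%, 28.4 to 51.4), and their intervals lay above that of all 1096 pairs. On chromosomes 16 and 20 the shares were 19 of 60 (31.7%) and 8 of 24 (33.3%). Chromosome X had 1 of 34 (2.94%, 0.0744 to 15.3), chromosome 15 had 3 of 41 (7.32%) and chromosome 6 had 8 of 75 (10.7%). Lone starts on the same chromosomes gave 15.4% on 11, 13.0% on 17, 19.0% on 16, 24.8% on 20, 4.05% on X, 9.15% on 15 and 6.99% on 6. Since a pair has 2 starts, the share of 2 unrelated lone starts of the same chromosome with a summit at either is given too: 28.5% on 11, 24.3% on 17, 34.4% on 16, 43.4% on 20, 7.94% on X, 17.5% on 15 and 13.5% on 6. The measures differ, because the shares of pairs by chromosome count a summit within 1 kb of both starts. Shares of pairs with a summit at either start were not counted by chromosome. Of these, the value for chromosome 17 lay below the interval of its pairs, that for chromosome 11 at its lower edge, and the other 5 inside theirs. Chromosome 17 held the most shared summits, 51 of its 227 (22.5%), followed by chromosome 11 with 44 of 264 (16.7%).

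**Figure D5:**
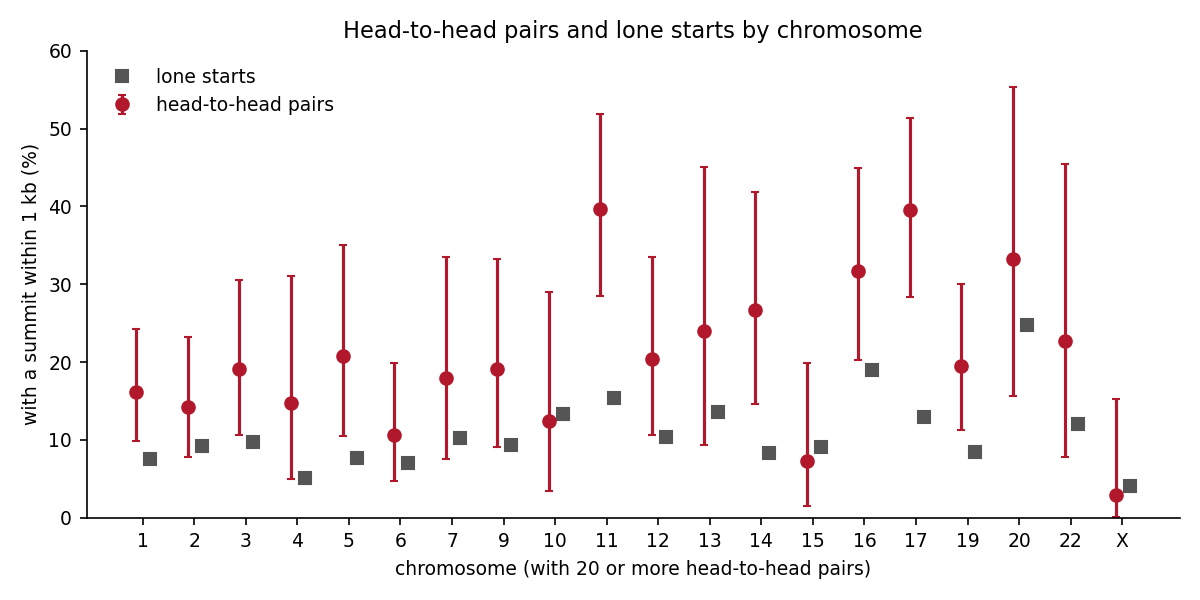
Percentage of head-to-head pairs with a summit within 1 kb of both starts (red, bars are exact 95% intervals) and of lone starts with a summit within 1 kb (grey squares), on chromosomes with 20 or more head-to-head pairs of known strand. Chromosomes 11 and 17 stand highest for pairs at 39.7% and 39.5%, and chromosome 20 highest for lone starts at 24.8%.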

How the data were processed

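WSTF ChIP-seq was made in SW620 cells from chromatin crosslinked in 1% formaldehyde and sheared to 200 to 500 bp, per the labels' protocols. The submitters' processing notes name Trimmomatic 0.39, Bowtie2 2.4.4, MACS2 2.2.7.1 and hg38, and the design text names input DNA as the comparison for peaks. Whether replicates were pooled is not given in those sources. The authors deposited 1 base per peak with a score. It was taken as −log10 q, since the smallest deposited −log10 value, 1.31, sits at the limit that a q of 0.05 sets (1.30). Depth is unknown.

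Distances from the third column of the list to gene ends used RefSeq GRCh38.p14, chromosomes 1 to 22 and X, 19974 protein-coding genes. Strand came from the RefSeq promoter table and matched 15812 of them, including 678 of the 794 at shared summits. Each gene was entered with only its end nearest to the summit. A summit with several pairs then took the first of head-to-head, head-to-tail, opposite-strand, shared start and tail-to-tail that applied to those ends. Named genes were the 25 highest scores, the 3 highest per arrangement, the highest with 3 or more genes, those at the limit and the highest 4 per list; 1 summit with 3 genes that this names is not reported here. Members and lists were chosen with earlier results of these data known. No test was run; shares carry exact 95% intervals and medians order-statistic intervals. The arrangement calls recovered 320 of 320 simulated pairs. These were isolated pairs of long genes, so calls at short genes or at 3 or more genes were not checked. Alternatives are listed at the end. Python 3.11.15, pandas 2.3.3, numpy 2.4.6, SciPy 1.17.1 and matplotlib 3.10.9 were used.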

Additional observations from a re-analysis of the deposited data

How the results depend on the processing

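Of 42 alternative values, 27 stayed inside the interval of the main value. None of the alternatives without LOC genes, without read-through genes or with summits within 1 kb counted once left it. With a window of 500 bp instead of 1 kb, shared summits were 10.3% of the list, head-to-head genes 79.2% of the arrangements, and a summit was held by 7.44% of all close pairs, 15.8% of head-to-head pairs and 0.157% of tail-to-tail pairs. With 2 kb, shared summits were 19.2%, head-to-head genes 65.0%, and a summit was held by 12.1% of close pairs and 2.19% of tail-to-tail pairs. With gene starts only, shared summits were 9.31% and head-to-head genes 90.8%. Summits at or above the median score, which leave fewer summits by construction, gave a median of 5.04, 5.25% of close pairs and 9.67% of head-to-head pairs. Allowing 2 kb between the gene ends gave 8.37% of close pairs. Head-to-head pairs held summits more often than tail-to-tail pairs under every alternative run on both. No paired analysis was possible because there was only 1 list and no replicate of it. As depth is unknown, gene pairs outside the list may still carry WSTF below its threshold.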

Other observations

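Some genes met a different neighbour at each end and had a shared summit at both. There were 10 such genes among the 16 that lay at 2 shared summits. AARS1, the alanyl-tRNA synthetase gene, had one at its end beside the start of EXOSC6, an RNA exosome subunit (score 5.75), and one at its start beside DDX19B, an mRNA export helicase (1.84). CCT6A had one beside PSPH (12.1) and one beside SUMF2 (3.02), and NUTF2 one beside CENPT (10.4) and one beside EDC4, an mRNA decapping factor (2.66). MRPS34 had one beside NME3 (9.64) and one beside EME2, a DNA repair nuclease subunit (3.13). At ZC3H10 the partners were RPL41 (3.34) and ESYT1 (4.77), and at PIDD1 they were SLC25A22 with PANO1 (3.74) and RPLP2 (4.04). EML3 had MTA2, a subunit of the NuRD remodelling complex (5.01), and ROM1 (2.52). MGAT4B lay beside SQSTM1, the autophagy receptor p62 (6.63), and LTC4S (2.36), and INCA1 beside CAMTA2 (2.78) and KIF1C (5.11). The other 6 were the genes of the 3 pairs with 2 summits at 1 meeting point.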
